A study of Mus musculus with 2 samples.

Results

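This section follows 10 genes of the muscle programme that serum response factor (SRF), its partner myocardin and the myocyte enhancer factor 2 (MEF2) proteins are known to control, as they stood in the adult mouse urinary bladder. The 10 genes were taken as a given list and looked up by symbol: 5 regulators (Srf, Myocd, Mef2a, Mef2c and Mef2d) and 5 muscle targets (Lmod1, Synpo2, Pgm5, Nexn and Ldb3). All 10 matched 1 row each among the 43346 Ensembl genes of both deposited gene tables. The samples form 1 group of 2 libraries, labelled biological replicates 1 and 2, of bladder from C57BL/6J mice aged 8 weeks. The labels describe littermates of both sexes and give the same donor entry for both libraries, without the number of animals in each, so the spread between the libraries may be partly technical. No second tissue, age or treatment was measured here. The tables placed 99367453 (replicate 1) and 105057347 (replicate 2) estimated fragments on genes.

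SRF binds a short DNA element called the CArG box as a dimer and switches on either growth-response genes or muscle genes, depending on the partner it recruits. Myocardin is the partner that drives contractile genes in smooth and cardiac muscle, and its relatives MRTF-A and MRTF-B carry signals from the actin cytoskeleton to SRF. MEF2 proteins bind a related element, the MEF2 box, and work with tissue-specific partners in muscle, neurons and lymphocytes. In the bladder wall the detrusor, a thick smooth muscle layer, is the main tissue in which this programme is known to act.

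Exact CArG or MEF2 boxes stood in the promoter windows of 2 regulators, Srf and Mef2a, and of 2 targets, Ldb3 and Synpo2, and these windows are printed first to show the elements. RefSeq windows (GRCm38.p6, 250 bases before to 50 bases after an annotated start) were at hand for 8 of the 10 genes; Myocd and Nexn had no entry. Each sequence below is the 250 bases before the start, 5′ to 3′ on the gene's strand, with exact CArG or MEF2 boxes in capitals. The Srf window lies at chr17:46556163-46556412 (minus strand), the Ldb3 window at chr14:34588682-34588931 (minus strand) and the Synpo2 window at chr3:123236150-123236399 (minus strand). For Mef2a, whose box lies on the start itself, 30 bases are shown, chr7:67372841-67372870 (minus strand).
Srf: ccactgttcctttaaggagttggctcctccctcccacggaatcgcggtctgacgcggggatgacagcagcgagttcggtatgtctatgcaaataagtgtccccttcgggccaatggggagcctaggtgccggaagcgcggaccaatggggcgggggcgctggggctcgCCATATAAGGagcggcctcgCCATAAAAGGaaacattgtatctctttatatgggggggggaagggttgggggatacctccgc
Ldb3: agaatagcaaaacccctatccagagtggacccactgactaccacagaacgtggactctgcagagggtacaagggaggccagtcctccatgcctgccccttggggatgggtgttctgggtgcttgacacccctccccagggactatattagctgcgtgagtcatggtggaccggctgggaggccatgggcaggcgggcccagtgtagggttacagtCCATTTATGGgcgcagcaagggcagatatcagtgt
Synpo2: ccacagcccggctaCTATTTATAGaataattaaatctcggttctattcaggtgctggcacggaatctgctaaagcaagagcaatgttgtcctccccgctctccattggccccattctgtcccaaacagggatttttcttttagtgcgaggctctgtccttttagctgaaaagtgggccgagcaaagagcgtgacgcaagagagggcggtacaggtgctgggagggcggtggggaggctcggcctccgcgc
Mef2a: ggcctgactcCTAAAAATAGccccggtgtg

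Both strands were searched, and a match is a description of the letters, not evidence of binding. Srf held 2 exact CArG boxes, CCATATAAGG and CCATAAAAGG, whose first bases lie 82 and 62 bases before its start. Ldb3 held 1, CCATTTATGG, whose first base lies 35 bases before one annotated start and 109 before the other. An exact CArG box thus stood in 2 of the 8 genes, while 1.81% of all 27025 genes in the promoter table held one in a window. The MEF2 box was found exactly in Mef2a (CTAAAAATAG, its first base 2 bases before the start) and in Synpo2 (CTATTTATAG, 236 bases before), against 3.70% of all genes. With 1 mismatch allowed, Mef2a and Lmod1 joined the genes with a CArG box, but 23.8% of all genes then held one. A MEF2 box with 1 mismatch allowed was found in 5 of the 8 (Mef2a, Mef2c, Lmod1, Synpo2 and Ldb3), against 29.8% of all genes. Lmod1 had CTTTAAAAGG and CTAAATTTGG at 189 and 164 bases before its start. Pgm5 and Mef2d held no match to either box in this window, exact or with 1 mismatch.

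All 10 genes were above 1 TPM in both libraries. TPM divides the estimated fragments of a gene by its length and scales each library to the same total, so genes can be compared with each other on it. Of all 43346 genes 32.7% reached 1 TPM in both libraries. The 10 genes together held 1079 TPM in replicate 1 and 743 TPM in replicate 2, which is 0.115% and 0.0806% of all gene TPM (mean 0.0978% ± 0.0243, SD, n = 2). The 5 targets carried most of it, 83.5% in replicate 1 and 80.7% in replicate 2.

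**Figure D1:**
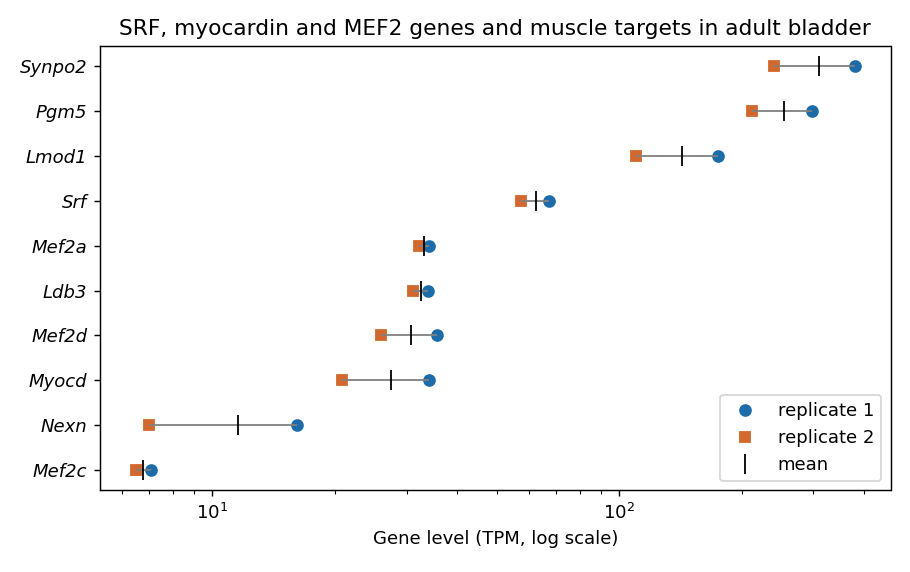
Level of each gene in TPM on a log axis; circles are replicate 1, squares replicate 2, bars the mean. Synpo2, Pgm5 and Lmod1 stand above 100 TPM in both libraries, Mef2a, Ldb3, Mef2d and Myocd lie close together between 20.9 and 35.7 TPM, and Nexn and Mef2c are lowest.

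Srf (ENSMUSG00000015605.5, mm10 chr17:46548329-46556175, minus strand) was the most abundant regulator, with 67.2 TPM (replicate 1) and 57.4 TPM (replicate 2; 62.3 ± 6.94, SD, n = 2). It lay above 86.6% of the 14533 expressed genes, those whose mean was 1 TPM or more. Both libraries of Srf lay above every library of the other 4 regulators. Myocd (ENSMUSG00000020542.14, chr11:65176561-65269989, minus strand), the coactivator, was at 34.1 and 20.9 TPM (27.5 ± 9.32). Its replicates were the farthest apart of the 5 regulators in relative terms. Part of its value sat on a short transcript model annotated as noncoding, described further on. That model held 168 and 112 of the gene's 8169 and 5265 estimated fragments. Over transcripts annotated as protein-coding the mean was 16.6 TPM, an alternative chosen after seeing the data. That mean leaves out any coding RNA whose fragments were assigned to the short model.

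Mef2a (ENSMUSG00000030557.12, chr7:67231163-67372858, minus strand) was at 34.1 and 32.2 TPM (33.2 ± 1.33). Mef2d (ENSMUSG00000001419.13, chr3:88142372-88172086, plus strand) was at 35.7 and 26.0 TPM (30.9 ± 6.82). Mef2c (ENSMUSG00000005583.12, chr13:83504034-83667080, plus strand), the MEF2 gene needed for heart development, was at 7.05 and 6.48 TPM (6.77 ± 0.40). Mef2a and Mef2d were not separable, since their libraries overlapped, while both libraries of Mef2c were below all of theirs. The remaining member of the family, Mef2b, was at 0.24 and 0.22 TPM, under the 1 TPM level in both libraries. The MEF2 pool in these libraries was mostly Mef2a and Mef2d by TPM.

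Synpo2 (ENSMUSG00000050315.9, chr3:123076519-123236149, minus strand), which encodes the actin-bundling protein myopodin, was the highest of the 10, with 379 TPM (replicate 1) and 240 TPM (replicate 2; 309 ± 98.5). Pgm5 (ENSMUSG00000041731.9, chr19:24683016-24861855, minus strand) encodes aciculin, a phosphoglucomutase relative of adhesion sites that lacks the enzyme activity, and was at 297 and 212 TPM (255 ± 60.4). Synpo2 was above Pgm5 within each library, but the ranges overlapped, so their order rests on the pairing within libraries. Lmod1 (ENSMUSG00000048096.7, chr1:135324807-135368065, plus strand), the smooth muscle leiomodin that nucleates actin filaments, was at 175 and 110 TPM (142 ± 45.8). These 3 genes lay above 94.8% to 97.7% of the 14533 expressed genes.

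Ldb3 (ENSMUSG00000021798.9, chr14:34526603-34588682, minus strand), a PDZ-LIM protein of the Z-disc also called ZASP or Cypher, was at 34.0 and 31.2 TPM (32.6 ± 1.99), level with Mef2a. Nexn (ENSMUSG00000039103.8, chr3:152236982-152266350, minus strand), the F-actin binding protein nexilin, had 16.1 TPM (replicate 1) and 6.97 TPM (replicate 2; 11.5 ± 6.47). The range of Nexn overlapped that of Mef2c. In the order of means, 4 steps separated neighbours whose libraries did not overlap: Pgm5 above Lmod1, Lmod1 above Srf, Srf above Mef2a, and Myocd above Nexn. The other 5 steps overlapped, and Ldb3 and Mef2d changed places between the libraries.

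Each muscle target was set beside its relatives, since the same protein families have striated and ubiquitous members. Lmod1 was the only leiomodin above 1 TPM: Lmod3 was at 0.12 and 0.04 TPM and Lmod2, the cardiac and skeletal form, at 0.02 and 0 TPM. Of the tropomodulins, which cap the slow end of the actin filament, the ubiquitous Tmod3 was highest at 47.2 and 50.3 TPM. Synpo2 had its striated relative Synpo2l at 0.17 and 0.07 TPM and Synpo, the kidney and brain form, at 16.5 and 14.4 TPM. Pgm5 exceeded the active enzyme Pgm1, which was at 38.1 and 40.1 TPM, in both libraries. Ldb3 was different: 5 of its 6 PDZ-LIM relatives were above it in both libraries, led by Pdlim3 at 773 and 755 TPM and Pdlim7 at 268 and 288 TPM, while Pdlim2 (mean 32.1 TPM) overlapped it.

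**Figure D2:**
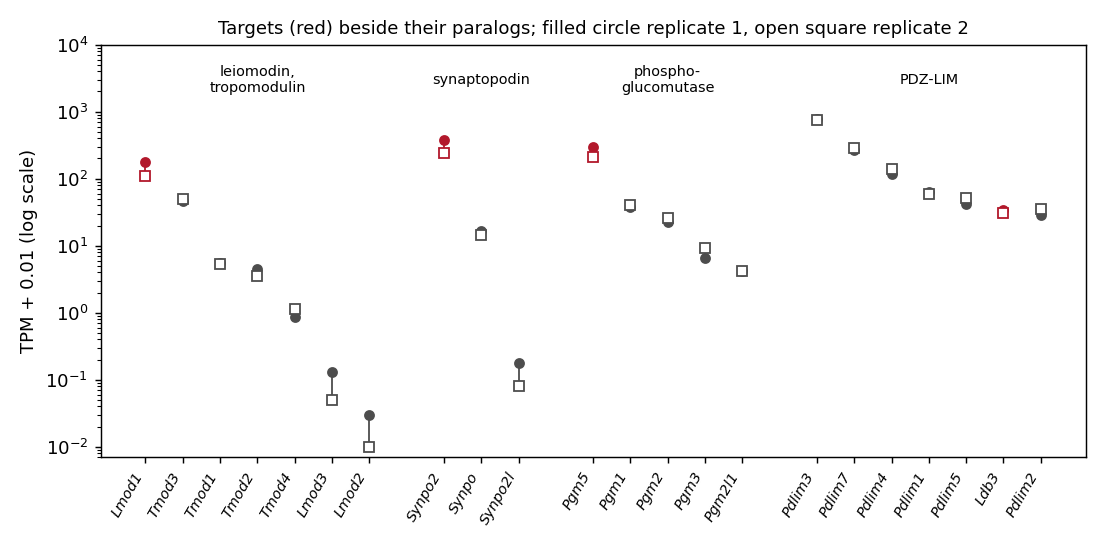
Level of each target (red) and its paralogs in TPM, with 0.01 added so that 0 can be drawn on the log axis; filled circles are replicate 1 and open squares replicate 2. Lmod1, Synpo2 and Pgm5 lead their families, whereas Ldb3 is near the bottom of the PDZ-LIM family.

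The wider pathway was read from gene lists drawn up with earlier results of these data known. Of 7 partners and relatives of the regulators, 6 reached 1 TPM in both libraries. Mrtfa was at 11.8 and 7.0 TPM and Mrtfb at 9.94 and 6.06 TPM, each below Myocd in the same library. The ternary complex factor Elk4, a partner of SRF at growth genes, was at 35.6 and 26.8 TPM. Of 12 known inhibitors of SRF or MEF2, 11 reached 1 TPM in both, and Ybx1, Phb2, Hopx and Hdac5 had the highest means. Among the class IIa deacetylases, which bind and silence MEF2, Hdac5 was at 52.4 and 43.5 TPM and Hdac9 at 1.35 and 1.37 TPM. A list of 21 activating signals and cofactors had 18 at 1 TPM or more in both libraries. It was led by Csrp1 (mean 3236 TPM), which is also on the list of smooth muscle targets. All 19 smooth muscle targets of SRF reached 1 TPM in both libraries, from Itga8 at a mean of 9.46 TPM to Acta2, smooth muscle actin, at 8674 TPM. Of 14 MEF2 targets 9 did, led by Ckm at 263 and 259 TPM. Of 11 immediate early SRF targets, a list that includes Srf itself, 8 did, led by Junb at 67.0 and 89.5 TPM.

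The tissue was checked against marker genes. All 8 smooth muscle markers had means of 376 TPM or more. These 8 are also on the list of smooth muscle SRF targets above. Some genes on the skeletal and cardiac muscle lists were at or near 0 in both libraries. Among them were Myh4 (0 and 0.01 TPM), Myog (0.02 and 0.02 TPM), Nkx2-5 (0 and 0 TPM) and Myh6 (0.07 and 0.02 TPM). Other genes on those lists were not: 7 of 17 skeletal and 7 of 11 cardiac markers reached 1 TPM in both libraries. Acta1 was at 1371 and 1042 TPM, Actc1 at 263 and 319 TPM and Tnnt2 at 298 and 205 TPM. A list of 17 Z-disc and striated genes, drawn up as partners of Nexn and Ldb3, includes Nexn itself. Of the 17, 7 reached 1 TPM in both libraries, Nexn among them. They were led by the non-sarcomeric Actn1 (401 and 305 TPM) and Actn4 (239 and 212 TPM). Sarcomeric Actn2 was at 0.93 and 1.08 TPM, and Myot, Xirp2 and Myoz3 were at 0 in both.

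All 10 genes were lower in replicate 2 relative to other genes. The measure was log2 of replicate 2 over replicate 1 with 0.5 TPM added to each, minus 0.08, the median over the 14533 genes; this scale understates ratios of low genes. The median of the 10 was -0.55, the median of all genes being 0 by construction with 50% of them below it, and the range of the 10 ran from -1.24 to -0.16. Of the 10, 1 gene, Nexn at -1.24, was lower by 2-fold or more, against 1.46% of all 14533 genes; none was higher by that much, against 0.385%, so that 1.84% of all genes passed 2-fold in either direction. Myocd (-0.78), Lmod1 (-0.75) and Synpo2 (-0.74) also lay under the 5th percentile of all genes, -0.64, and Pgm5 (-0.57) and Mef2d (-0.53) just inside it. Mef2a (-0.16), Mef2c (-0.20) and Ldb3 (-0.21) were closest to the other genes. With 1 library on each side no test of this difference exists.

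**Figure D3:**
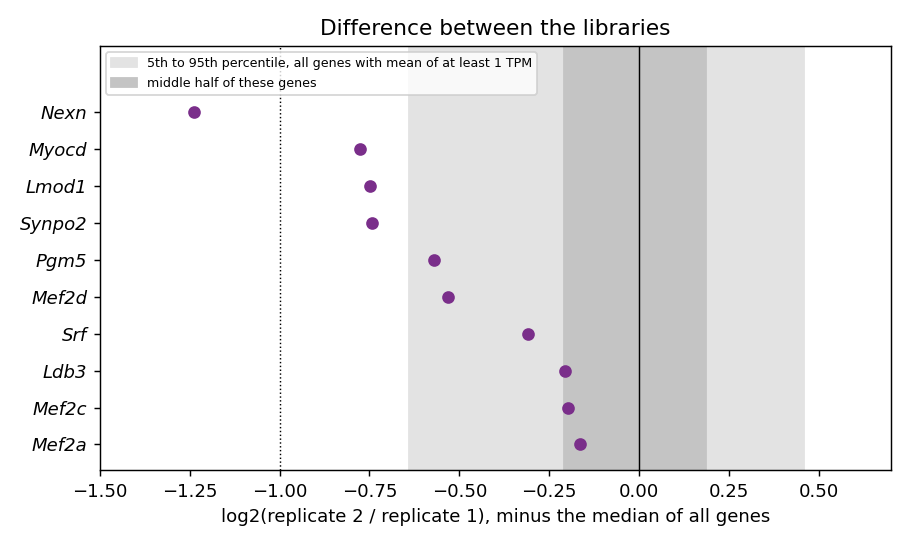
Difference between the libraries for each gene, log2 of replicate 2 over replicate 1 minus the median of all genes; grey bands span the middle 50% and 90% of the 14533 genes and the dotted line marks 2-fold. All 10 points lie left of 0, and Nexn alone lies past the dotted line.

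None of the 6 expressed partners of these genes passed 2-fold. Mrtfb was at -0.75 and Mrtfa at -0.80, near Myocd, while Elk1 and Elk3 were at -0.06 and -0.05. The 19 smooth muscle targets had a median of -0.30, with 15 below 0 and Myh11 lowest at -0.94. The 9 expressed immediate early targets, which include Srf itself (-0.31), had a median of 0.14. Egr1 among them was lower by over 2-fold (-1.23, from 15.9 to 6.94 TPM). The 9 expressed MEF2 targets had a median of -0.10 and none passed 2-fold. The 18 expressed activating signals and cofactors also had a median of -0.10, with 11 below 0 and none past 2-fold. Markers of other cell types lay on both sides of the median of genes. All 6 superficial urothelium markers were above it (summed 3921 TPM in replicate 1 and 5602 TPM in replicate 2), as were all 7 adipocyte markers (1287 and 2408 TPM, 4 past 2-fold). Smooth muscle markers, all 8 also among the 19 smooth muscle targets above and so not a separate reading, summed to 28833 and 26065 TPM. All 8 were below the median. All 6 pericyte markers were below it too (median -0.45). Below it were also 5 of 8 endothelial markers (median -0.23) and 3 of 5 markers of interstitial fibroblasts (median -0.25), near the 50% of all genes. Of the expressed neuron and glia markers 3 of 8 were below (median 0.07), with Rbfox3 at -1.34. Of the expressed B cell and macrophage markers 0 of 6 were below (median 0.12). Among expressed skeletal and cardiac muscle markers, 5 of 8 (median -0.10) and 5 of 7 (median -0.09) were below. The cardiac marker Myl7 was higher by over 2-fold (1.05, from 1 to 2.8 TPM). The part of these cell types in the difference was not tested, and in whole tissue fewer cells of a type and less RNA per cell cannot be told apart. Long genes were also lower in replicate 2, with a median of -0.22 in the longest 10% of genes and 0.08 in the shortest 10%. Set against genes of like length, 9 of the 10 were below the median. Myocd, Lmod1, Synpo2, Pgm5 and Nexn lay between -0.54 and -1.25 and Mef2d at -0.39. The other 4 came nearer to 0: Srf to -0.17, Ldb3 to -0.07, Mef2a to -0.03 and Mef2c to 0.02.

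Splice forms were read from the authors' transcript tables and, separately, from a deposited table of splice junction reads on the mm9 assembly, summed over both libraries. Of the 42 transcripts quantified for the 10 genes, 39 had an Ensembl 65 structure on mm9, and the quantified length equalled that structure's length in all 39. Srf, Lmod1 and Nexn had 1 quantified transcript each. In 6 of the other 7 genes, all but Synpo2, 1 transcript held over 50% of the TPM in both libraries. Junction shares carry exact Clopper-Pearson 95% intervals, which cover counting error only. Junctions with at least 10 reads were used; 47 donor or acceptor sites of the 10 genes joined more than 1 of them.

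Most Myocd reads at the junctions between exons 2 and 3 of the main coding transcript, Myocd-203, carried an exon of 44 bases. It was entered by 371 of the 432 reads leaving exon 2 (85.9%, interval 82.2% to 89.0%) and left by 288 of the 357 reads arriving at the next exon (80.7%, 76.2% to 84.6%). The junction that skips it had 40 reads, which is 9.26% (6.70% to 12.4%) and 11.2% (8.13% to 14.9%) of the same reads. An alternative exon of 214 bases took the remaining 21 and 29. As background, an early exon of mouse Myocd is known to be used in smooth muscle and skipped in the heart, and its use moves the start of translation to a later start codon. The authors' transcript table put the weight elsewhere: Myocd-203, which skips the exon, held 56.2% of the gene's TPM in replicate 1 and 54.1% in replicate 2. Myocd-205, a model of 377 bases annotated as noncoding, was the only quantified transcript with the exon. It held 35.8% and 38.3% of the TPM, on 168 and 112 estimated fragments. This model ends at exon 3 of Myocd-203, whereas the junction from exon 3 to exon 4 had 362 reads. No quantified transcript combined the exon with the rest of the coding sequence.

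The MEF2 genes share a layout in which a pair of alternative exons follows the DNA-binding part and a short exon, called beta, can be added to the activation domain. The Mef2d pair and the short exons of both genes are printed below, because their shares are the main result on splicing. On mm10 the Mef2d exons lie at chr3:88158034-88158171, chr3:88158221-88158355 and chr3:88161781-88161801 (plus strand) and the short Mef2a exon at chr7:67244521-67244544 (minus strand). Capitals mark the bases identical to the partner in an alignment, the 2 exons of the Mef2d pair with each other and the 2 beta exons with each other.
Mef2d 138-base exon: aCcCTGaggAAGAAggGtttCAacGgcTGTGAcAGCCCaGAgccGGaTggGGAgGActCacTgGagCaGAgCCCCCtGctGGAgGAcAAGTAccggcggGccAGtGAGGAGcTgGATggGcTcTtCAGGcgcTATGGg
Mef2d 135-base exon: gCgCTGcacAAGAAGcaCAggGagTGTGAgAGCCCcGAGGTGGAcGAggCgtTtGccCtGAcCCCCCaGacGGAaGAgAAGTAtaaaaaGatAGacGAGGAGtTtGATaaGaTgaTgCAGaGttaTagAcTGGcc
Mef2a 24-base beta exon: tCgGAgGaaGAggAaTTgGAgtTG
Mef2d 21-base beta exon: aCtGAGGAccAtTTaGAtcTG

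All 4 printed exons are whole numbers of codons long. The exons of the Mef2d pair were 55.2% identical. The beta exons shared 13 of 24 aligned positions.

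Both genes used mostly the upstream exon of the pair. In Mef2a 418 of 602 reads entered the 132-base exon (69.4%, 65.6% to 73.1%) and 184 the 138-base exon; on the other side the reads were 421 and 253. In Mef2d 419 of 482 reads entered the upstream exon (86.9%, 83.6% to 89.8%) and 52 the downstream one. The intervals of the 2 genes did not overlap, so Mef2a carried more of the downstream exon at this depth. The beta exon went the other way: it was left by 104 of 617 reads in Mef2a (16.9%, 14.0% to 20.0%) and by 124 of 350 in Mef2d (35.4%, 30.4% to 40.7%). The entering side gave 16.4% and 39.6%.

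The transcript table differed on both beta exons. Mef2a-208, which holds the beta exon, was given 79.1% of the gene's TPM in replicate 1 and 80.0% in replicate 2, about the reverse of the junction reads. In Mef2d, the transcripts with the beta exon held 6.88% and 5.03% of the TPM at that site, below the junction share. Mef2a-201, with the downstream exon of the pair and no beta exon, held 15.1% and 12.9%. Mef2d-201, with the upstream exon and no beta exon, held 68.3% and 73.7%, and Mef2d-204 held 19.7% and 17.0%.

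Mef2c had few reads, between 44 and 227 on each annotated junction that reached 10 reads. Its last coding exon can begin at either of 2 acceptors 96 bases apart, and the added stretch is the gamma region, known to lower the activity of the protein. The longer form took 55 of 232 reads (23.7%, 18.4% to 29.7%), the shorter 151, and an acceptor 2 bases farther on, not annotated in Ensembl 65, the other 26. Among quantified transcripts the longer form, Mef2c-202, held 75.0% and 69.3% of the gene's TPM, and the shorter, Mef2c-201, 24.4% and 29.8%. Mef2c-202 carries an exon of 144 bases, whose flanking junctions had 227 and 203 reads, whereas Mef2c-201 carries an alternative exon of 138 bases whose junctions had fewer than 10 reads each. Neither of these 2 transcripts joins the 144-base exon to the short acceptor, and both begin with exons whose junctions had under 10 reads. The remaining quantified transcript, Mef2c-203 (0.04 and 0.06 TPM), has no Ensembl 65 structure, and its exons were not analysed here.

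**Figure D4:**
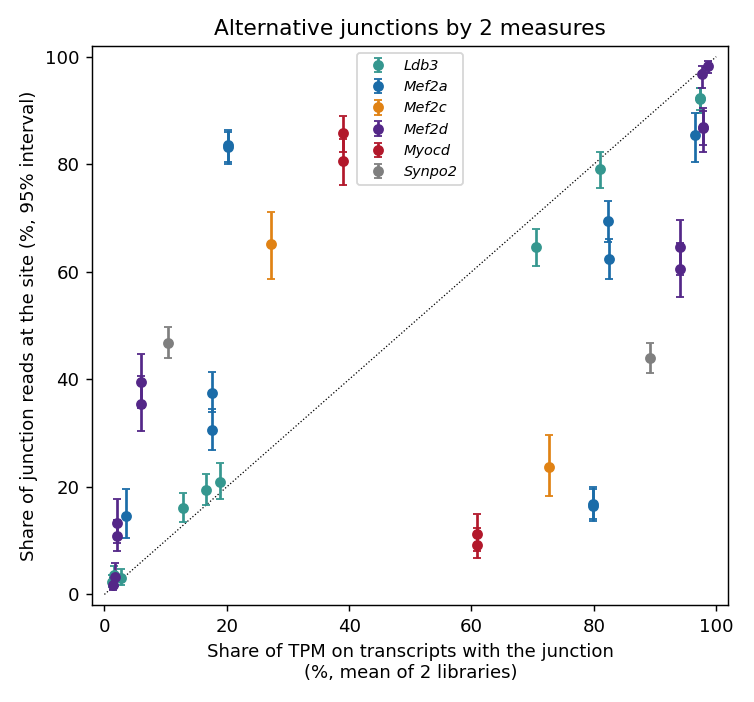
Each point is 1 junction at an alternative site with at least 50 reads. Only junctions in transcripts that were given TPM are drawn, at sites with more than 1 of them. The y axis is the junction's share of the reads at the site with a 95% interval. The x axis is the share of TPM on the quantified transcripts that contain it, mean of the 2 libraries. Ldb3 lies near the dotted line of equal shares, while Myocd, Mef2c, Synpo2 and the beta exons of Mef2a and Mef2d lie far from it on opposite sides.

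Over the 40 junction ends drawn, the mean TPM share lay outside the read interval for 33. These were 10 of 10 for Mef2a, 4 of 4 for Myocd, 8 of 12 for Mef2d, 2 of 2 for Mef2c, 2 of 2 for Synpo2 and 7 of 10 for Ldb3. Alternative sites of Nexn, Srf and Pgm5 were not drawn or counted, since only 1 junction at each lay in a quantified transcript. Among them is a Nexn exon entered by 70.4% of 196 reads and held by no quantified transcript. Shares at 1 site depend on each other, and the ends of 1 exon share reads or transcripts, so the 33 are not separate disagreements. Reads at a site also include junctions in no quantified transcript, which the TPM shares leave out. The 2 tables come from different assemblies and annotations. The reason for the difference was not tested.

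In Ldb3 the internal exon of 359 bases, which the heart form of the protein uses, was entered by 544 of 591 reads (92.0%, 89.6% to 94.1%) and left by 653 of 707. The transcripts with it held 96.8% and 97.7% of the TPM. The route through the exons used in skeletal muscle, which ends at the same acceptor, had 26 and 16 reads. The exon of 186 bases was in 129 of 616 reads at its far side (20.9%, 17.8% to 24.4%), and in 18.0% and 20.0% of the TPM there. The short form without LIM domains, Ldb3-203, had 121 of 754 reads (16.0%, 13.5% to 18.9%) and 15.2% and 10.4% of the gene's TPM. Ldb3-202, the long form without the 186-base exon, held 69.5% and 71.7% and Ldb3-201, with it, 12.0% and 15.6%.

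Srf was spliced almost in 1 way. An internal exon of 192 bases, exon 5 (chr17:46549845-46550036, minus strand, mm10), part of the activation domain, was skipped by 75 of 2475 reads (3.03%, 2.39% to 3.78%). Skipping of this exon is known to give a form that can act against full-length SRF; it was not among the quantified transcripts. A junction not annotated in Ensembl 65 took 64 of 2765 reads at the acceptor of the second exon. Lmod1 had no alternative, with 4488 and 3389 reads over its 2 junctions. Pgm5 had between 5613 and 8305 reads on each of the 10 junctions of its main transcript, Pgm5-201, which held 96.2% of the TPM in both libraries. At the acceptor of its second exon, 206 of 6501 reads (3.17%, 2.76% to 3.62%) came from a donor not annotated in Ensembl 65. Its other unannotated junctions had between 10 and 120 reads each.

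Nexn had the largest share of reads outside the Ensembl 65 annotation, 25.1% of 2794 junction reads. Of these 702 reads, 298 lay on a junction shifted by 1 base from an annotated one. Another 151 joined annotated exon 2 to an upstream position other than annotated exon 1. The annotated junction from exon 1 to exon 2 had under 10 reads. An exon of 192 bases between annotated exons 2 and 3 (mm9 chr3:151916576-151916767) was entered by 138 of 196 reads (70.4%, 63.5% to 76.7%) and left by 76 of 134 (56.7%, 47.9% to 65.2%). The junction that joins the flanking exons directly, the only one in the quantified Nexn-201, had 58 reads. A known exon of 42 bases was skipped by 39 of 251 reads (15.5%, 11.3% to 20.6%). Both exons are whole numbers of codons long.

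Synpo2 reads were uneven along the gene, a comparison chosen after the values were seen. From the 5′ end, junctions 1, 2 and 3 had 386, 587 and 5436 reads, so junctions 1 and 2 carried 7.10% and 10.8% of the reads of junction 3. At the 3′ end 2 acceptors took 1202 and 534 reads. The acceptor with 1202 was reached from 3 donors with 563, 528 and 111 reads. In the transcript table Synpo2-201, which spans the first 3 junctions and ends in the exon after them, held 39.5% and 37.1% of the TPM, and Synpo2-206, of 1222 bases and without an Ensembl 65 structure, 34.9% and 42.4%. Synpo2-204, made of the last exon and a short stretch before it, held 21.6% and 19.2%. Synpo2 is known to make several myopodin forms that differ at both ends.

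**Figure D5:**
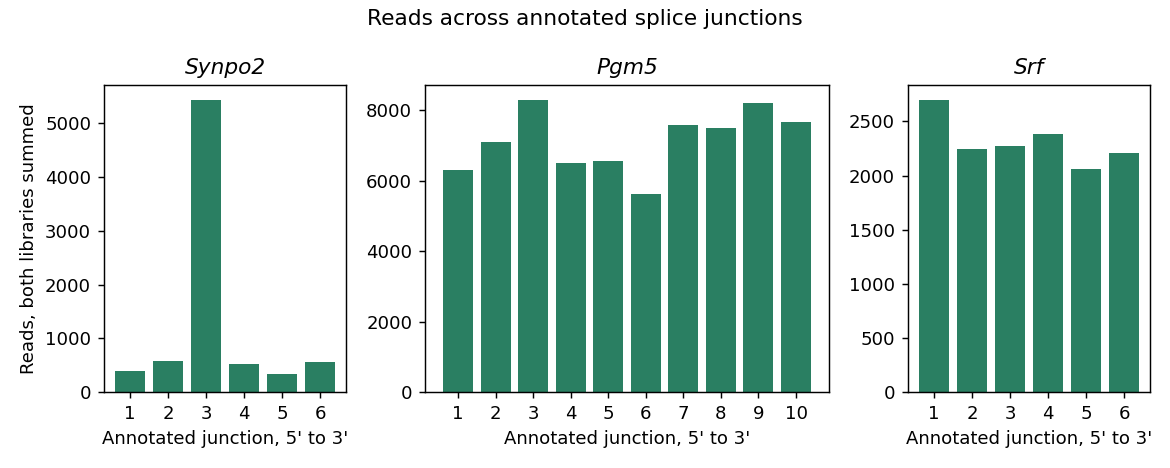
Reads across each annotated junction with at least 10 reads, numbered 5′ to 3′, both libraries summed; each panel has its own y axis from 0. Synpo2 has 5436 reads at junction 3 and under 600 at the others (4 to 6 are alternative joins at the 3′ end), while Pgm5 and Srf are even along the gene.

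Some reads may be shared with neighbouring annotations. Mef2a overlaps Lysmd4 on the opposite strand (6.93 TPM in the mean) and Mef2d overlaps the antisense gene 1700113A16Rik (2.99 TPM); the libraries are stranded per the labels, but whether strand was used in counting is not given in the sources used here. Pgm5 holds a pseudogene, Gm17800, on its own strand at 0.45 TPM.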

How the data were processed

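RNA over 200 bases, selected for polyadenylation and depleted of ribosomal RNA, was sequenced as stranded pairs of 101 bases, per the labels. The authors deposited expected counts (estimated fragments) and TPM per gene and transcript on mm10, with the percent of each gene's TPM per transcript, per the file headers. They also deposited RPKM values and exon positions for Ensembl 65 genes and read counts of splice junctions on mm9. The 2 RPKM values and the 2 read values of a junction are not tied to a replicate, so means and sums were used. Aligner and counting tool: not given in the sources used here.

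The 10 genes, the other gene lists and the settings were chosen with earlier results of these data known. Named are the 10 genes, their paralogs, and of each other list at most 4 of highest mean and some of those past 2-fold. Transcripts with at least 10% of their gene are also named, with some of the alternative junctions with at least 10 reads. Some marker and pathway genes beyond this rule were named after their values were seen, to show low ends of a list. Symbols came from a table of gene names; promoters from RefSeq (GRCm38.p6); exons and transcript names from GENCODE M21, linked to mm9 exons by transcript identifier and exon length. Motifs searched were the CArG box and the MEF2 box in their usual 10-base forms. Ratios used a pseudocount of 0.5 TPM. Expected counts, rounded, were scaled with edgeR 4.0.16 and DESeq2 1.42.0 in R 4.3.3 as alternatives only; no count test was run, since there is 1 group. Other steps used Python 3.11.15, pandas 2.3.3 and scipy 1.17.1. The ratio step was tested on simulated data. Some exon sequences are not reported here.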

Additional observations from a re-analysis of the deposited data

How the results depend on the processing

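No paired analysis was possible because the series has 1 group. All 10 genes passed detection at 0.5, 1 and 5 TPM, in each library alone and as posterior mean TPM. Leaving out either library gave a median level between 31.7 and 34.9 TPM, against 32.9 TPM over both. The share of gene TPM then lay between 0.0806% and 0.115%. In 6 genes 1 transcript held over 50% of the TPM each time. That count rests on TPM alone: at sites of Myocd, Mef2a and Mef2c the junction reads put the weight on another form, as described above. The median level was 5.31 in the RPKM values of mm9, another unit. The share of the 10 genes was 0.0978% of TPM, 0.128% of mm9 RPKM and 0.243% of expected counts, which are not divided by length; it was 0.117% with mitochondrially encoded genes left out. The median difference between the libraries ranged from -0.47 to -0.56 over the 8 alternatives and kept its sign in each, and Nexn alone passed 2-fold in each. Set against genes of like length, the Mef2c difference reversed, to 0.0225. With at least 50 reads per junction, 24 alternative sites were left of 47. A CArG box with 1 mismatch was found in 4 genes in place of 2. With 2 libraries, levels between genes whose ranges overlap, and differences between the libraries, could not be tested; junction shares cannot be split by library.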
